A study of Mus musculus with 8 samples.

Results

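Regions with a peak of RNA:DNA hybrid signal (DRIP-seq) in every condition of the study, called here constitutive regions, were described by their position, sequence and width. They were chosen by the peak calls themselves. The peaks of the 4 DRIP-seq lists were merged into union regions wherever they overlapped by at least 1 bp, and a region was selected on having a peak of all 4 lists. Of 194961 union regions, 17359 (8.9%) qualified, whereas 129448 had a peak of 1 list, 31746 of 2 lists and 16408 of 3 lists. The count depended on the peaks used. It was 5214 with −log10 q of at least 2, and 1076 with the top decile of scores, the part of the peaks that the paper considered. The number of lists, the peak scores and the covered lengths in each list therefore come from the values that chose the regions and are given as descriptions, without a test. Position and sequence were not part of the rule.

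The cells were mouse embryonic fibroblasts (MEFs) with floxed *Rtel1*, which encodes a DNA helicase. They also carried wild-type (WT) RNaseH1 fused to GFP under doxycycline control, and are written Rtel1F/F; WT RNH1-GFP. All 4 conditions shared these alleles and an adenoviral infection. Cells infected with GFP adenovirus kept the floxed gene (GFP mock and GFP DOX), cells infected with Cre-GFP adenovirus received the recombinase that deletes it (Cre mock and Cre DOX), and 48 h later the DOX cells received 2 µg/ml doxycycline for 48 h. Each condition was 1 library, pooled from 3 immunoprecipitations, with 1 peak list and no replicate, so no difference between conditions could be tested and all are given as values. The whole population of a culture was pooled, so hybrids in few cells and in many cells cannot be told apart. A peak list holds no expression values and cannot check the deletion or the induction: at *Rtel1* itself there was no peak in either GFP list, 2 in Cre mock and 1 in Cre DOX.

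R-loops form when a transcript pairs with its DNA template and leaves the other DNA strand unpaired. They are known at promoters with GC-rich sequence, at ends of genes, at ribosomal and mitochondrial DNA and at telomeres, whose repeat is transcribed into a long RNA called TERRA. The unpaired strand can fold into a G-quadruplex (G4) where it is rich in guanine, RNaseH1 cuts the RNA of the hybrid, and RTEL1 unwinds G4 and telomeric structures. The S9.6 antibody used in DRIP-seq binds the hybrid and pulls down the restriction fragment that holds it.

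Examples of shared sequence are shown first, to set narrow beside wide regions at promoters. Each stretch below was covered by peaks of all 4 lists and is given on the forward strand of mm10, with windows predicted to form a G4 (G4Hunter, absolute score of at least 1.5 over 25 bases, either strand) in capitals. *Mpnd* and *Stap2*, and *Taco1*, are narrow, high-scoring regions over promoters. *Hsp90ab1*, *Rpl13* and *Klf10* are wide regions that ranked high in their gene lists (translation and chaperones, ribosomal proteins, immediate early genes), each the first of its list except *Rpl13*, which came after *Rpl17*, not shown here. The examples are richer in predicted G4s than the set: of the longest shared stretches of all constitutive regions, 16.7% held one, and the stretches at *Sspn* and *Mphosph8*, described below without their sequence, held none.
*Mpnd* and *Stap2*, chr17:56005795-56005973: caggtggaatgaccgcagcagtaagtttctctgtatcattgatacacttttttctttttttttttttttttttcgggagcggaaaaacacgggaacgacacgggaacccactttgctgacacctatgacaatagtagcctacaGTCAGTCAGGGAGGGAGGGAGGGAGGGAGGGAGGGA
*Taco1*, chr11:106066718-106066881: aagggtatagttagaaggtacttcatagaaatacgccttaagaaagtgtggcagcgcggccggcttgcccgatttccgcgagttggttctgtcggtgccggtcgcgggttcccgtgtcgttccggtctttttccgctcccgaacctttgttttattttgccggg
*Hsp90ab1*, chr17:45572541-45572740: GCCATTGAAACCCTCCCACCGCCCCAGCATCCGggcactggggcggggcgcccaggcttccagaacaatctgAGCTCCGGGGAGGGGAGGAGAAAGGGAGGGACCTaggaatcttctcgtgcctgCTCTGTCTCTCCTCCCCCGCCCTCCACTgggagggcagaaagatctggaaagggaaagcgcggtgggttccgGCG
*Rpl13*, chr8:123102793-123102992: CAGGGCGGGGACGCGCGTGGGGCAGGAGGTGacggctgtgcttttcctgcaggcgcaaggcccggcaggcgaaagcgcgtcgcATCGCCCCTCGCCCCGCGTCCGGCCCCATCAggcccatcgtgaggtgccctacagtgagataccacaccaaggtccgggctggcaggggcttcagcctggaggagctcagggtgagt
*Klf10*, chr15:38299011-38299210: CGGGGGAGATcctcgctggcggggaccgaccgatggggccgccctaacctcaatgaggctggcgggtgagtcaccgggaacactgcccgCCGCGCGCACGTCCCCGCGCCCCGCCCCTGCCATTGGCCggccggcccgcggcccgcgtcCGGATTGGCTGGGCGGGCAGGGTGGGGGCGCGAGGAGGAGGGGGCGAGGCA
The middle of the *Hsp90ab1* stretch lay 86 bp upstream of the nearest annotated start site of that gene and the middle of the *Klf10* stretch 29 bp upstream of its own, whereas the *Rpl13* stretch was centred 240 bp downstream. Predicted G4 windows took up 98 of 200 bases at *Hsp90ab1*, 62 at *Rpl13* and 100 at *Klf10*, with a GC content of 65.5%, 70.0% and 78%. The *Mpnd* and *Stap2* stretch, centred 174 bp downstream of the nearest start site, carried 36 such bases, which end in a run of GGGA repeats, and the *Taco1* stretch had none.

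The constitutive regions were of 2 kinds that differed in repeat content. The share of bases in repeat-masked sequence was under 20% in 3058 regions (17.6%) and at least 80% in 11937 (68.8%), and only 13.6% lay between. Regions masked over at most 50% of their bases, here unmasked, numbered 4602 and were 5.69% of all unmasked union regions. Regions above that, here masked, numbered 12757 and were 11.2% of all masked union regions. Unmasked regions had a median GC content of 53.3% and a median CpG observed-to-expected ratio of 0.295, against 38.2% and 0.126 in masked ones. They also came from longer restriction fragments, with a median of 2552 bp against 896 bp (5 enzymes), so fragment length moved with the kind of region and its part in the difference was not tested.

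Not every region was the same stretch of DNA in all conditions. A base covered by all 4 lists was present in 12500 regions (72%, exact 95% interval 71.3 to 72.7%), and the remaining 4859 were joined only by chains of overlapping peaks. Where there was a shared part, its median length was 307 bp (quartiles 135 and 703 bp), within a median region of 2159 bp. The label of a peak present in all conditions thus held in the strict sense for these 12500. At the lower edge, 141 regions had a score of 10 in their weakest list, for example 109061936 to 109062636 on chromosome 5 with scores of 13, 14, 14 and 10 (always in the order GFP mock, GFP DOX, Cre mock, Cre DOX; the score is 10 times −log10 q), and the median of the weakest score was 17. Just outside, the best-ranked region of 3 lists was mitochondrial, from 9756 to 9894, with scores of 509, 293 and 213 and no peak in Cre DOX, followed by an intron of *Cdh23* that lacked a Cre mock peak and had scores of 281, 300 and 168 elsewhere.

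The best-scoring constitutive regions included ribosomal, mitochondrial and telomeric sequence. How many of them held sequence like that of ribosomal RNA genes was not counted. Regions were ranked by the mean, over lists, of the percentile of their best score. The 100 best had a median masked share of 36.4%, against 96.3% over all constitutive regions, and 2 of them were mitochondrial. The first lay on chromosome 17, from 39846584 to 39847514, over *CT010467.1*, annotated as ribosomal RNA, and over *Gm42418* and *AY036118*. Its scores were 1697, 1615, 1738 and 1445. The mitochondrial genome was next among transcribed sequences: 1 to 6515, which holds the ribosomal RNA genes *mt-Rnr1* and *mt-Rnr2* and the respiratory genes *mt-Nd1*, *mt-Nd2* and *mt-Co1*, scored 1028, 1156, 1476 and 2235, and 10963 to 16299, over *mt-Nd4*, *mt-Nd5*, *mt-Nd6* and *mt-Cytb*, scored 848, 786, 943 and 1357. Both were highest in Cre DOX and lowest in a GFP list. Both ribosomal and mitochondrial DNA are multi-copy, and copy number and hybrid level cannot be told apart here. A coding exon of *Lars2*, the mitochondrial leucyl-tRNA synthetase, from 123461297 to 123462306 on chromosome 9, ranked 8 with 801, 961, 1355 and 1175. An intergenic region on chromosome 1, from 90761207 to 90763069, had the highest Cre mock score of the 8 best, with 862, 760, 2406 and 1782 over a width of 1863 bp. Narrow regions were also among the 8, such as 5860231 to 5860685 on chromosome 3 between genes (1533, 1600, 1709 and 1263) and 87238196 to 87238575 in an intron of *Il1rapl1* (1454, 1096, 1287 and 1075).

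Telomeric repeats stood out among them. This class was picked after its sequence was seen in the ranking, so the counts are descriptions. Tracts of at least 4 tandem copies of the telomeric repeat unit on either strand, joined when within 1 kb, occurred at 268 places of the assembled genome. A constitutive region overlapped 63 of them (23.5%, exact 95% interval 18.6 to 29.0%), 8 were in regions of 3 lists, 8 of 2 lists and 9 of 1 list, and 180 had no peak. Tracts were therefore in 63 of 17359 constitutive regions (0.363%), against 0.0488% of regions in 3 lists, 0.0252% in 2 lists and 0.00695% in 1 list. They made up 26 of the 100 best-ranked constitutive regions. Longer tracts were covered more often: 29 of 59 with an unbroken run of at least 12 copies (49.2%) and 34 of 209 with shorter runs (16.3%) were constitutive. Of the 63 regions, 46 were intergenic, 11 intronic, 4 over promoters and 2 over other exons. Their median width was 399 bp.

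The ends of chromosomes were nearly all among them. In 19 chromosomes a telomeric tract was the last called sequence (within 10 bp of it), and 18 of these were constitutive regions (94.7%, exact 95% interval 74.0 to 99.9%). The exception was chromosome 9, whose tract of 6 copies had scores of 41 in GFP mock, 140 in Cre mock and 90 in Cre DOX and no peak in GFP DOX. The scores of the 18 ran from 41 to 739 in GFP mock, with a median of 185, and from 44 to 747 with doxycycline, with a median of 174.5. In Cre mock they ran from 48 to 972 with a median of 267, and after doxycycline from 73 to 1131 with a median of 283. These are high against a median score of all peaks of 17 to 19 in each list. The end of chromosome 3 had the highest values, at 739, 747, 972 and 1131. At chromosome 7, with the longest run of 88 copies, they were 41, 44, 48 and 82, and at chromosome 1 they were 145, 109, 229 and 73. The order of the conditions was not the same at these ends.

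**Figure D1:**
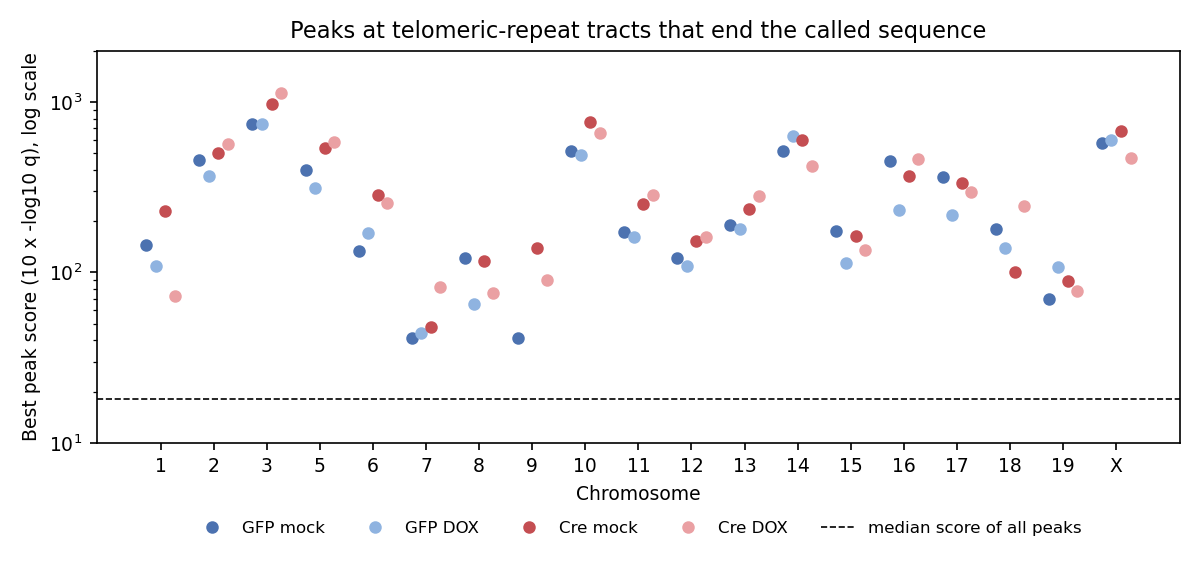
Best peak score (10 × −log10 q, log axis) at the telomeric-repeat tract that ends the called sequence of 19 chromosomes, 1 point per condition and 1 library per condition. The points lie between 41 and 1131, all above the dashed line at the median score of all peaks, and only chromosome 9 lacks a point, for GFP DOX.

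Between conditions, the score was higher in Cre mock than in GFP mock at 13 of the 18 ends, with a median ratio of 1.21. Over all 17359 constitutive regions the same held for 57.7% (median ratio 1.11) and over all regions with a peak in both lists for 54.1%. With doxycycline the score was lower at 12 of 18 ends in GFP cells (median ratio 0.915, all constitutive regions 57.2%, all regions in both lists 58.4%) and at 9 of 18 in Cre cells (median ratio 0.983, 45.4% and 47.2%). The share of ends with a lower score after doxycycline was thus within 10 percentage points of the share of all constitutive regions in both genotypes. Scores depend on the depth of a library, which the lists do not give. Reads of any telomere that match the repeat can be placed at any such tract, and how such reads were placed was not examined, so a value cannot be assigned to 1 chromosome end with certainty.

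Unmasked constitutive regions lay over promoters more often than unmasked regions of fewer lists. Of the 4602 unmasked regions, 2796 (60.8%, exact 95% interval 59.3 to 62.2%) lay within 1 kb of a start site, 511 (11.1%) over coding exons, 104 (2.26%) over other exons, 530 (11.5%) in introns and 661 (14.4%) between genes. With only the peaks of the top decile of scores the promoter share was 35.5%. The share of promoters was 20.7% of unmasked regions in 1 list, 32.9% in 2 lists, 44.6% in 3 lists and 60.8% in all 4, and the exact intervals did not overlap. Wider regions touch more promoters and more peaks. For a window of 1 kb around each region's middle the shares were 24.1, 35.0, 44.3 and 53.9%, so the rise was smaller and in the same direction. Under 500 bp, 0.617% of unmasked promoter regions and 0.492% of other unmasked regions were constitutive, with overlapping intervals. Promoters were more often constitutive in the 3 classes from 500 to 4000 bp: between 1000 and 2000 bp this was true of 34.0% of unmasked promoter regions (881 of 2593) and 21% of other unmasked regions (590 of 2812). From 4000 bp upward the values were 96.1% and 93.8%, with overlapping intervals. Intergenic sequence held 74.2% of masked regions (9466 of 12757) and introns 22.1%, and 3.11% were over promoters.

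**Figure D2:**
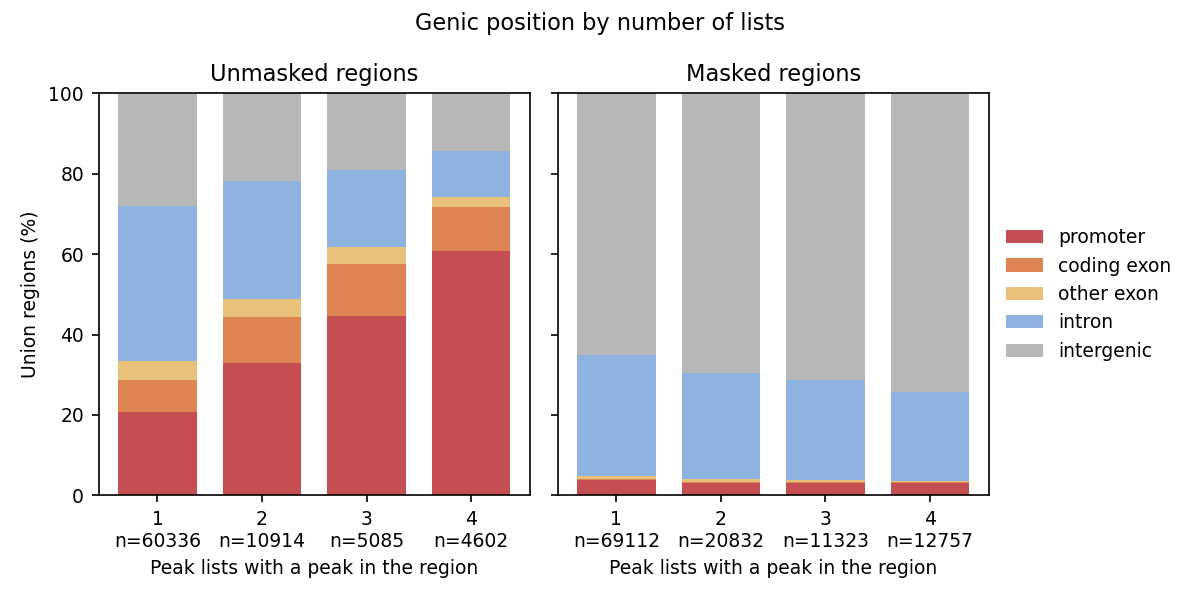
Share of union regions (%) in each genic position, by the number of peak lists with a peak in the region, for unmasked (left) and masked (right) regions, with the number of regions under each bar. Promoters rise from 20.7% to 60.8% of unmasked regions and stay between 3.01% and 3.79% of masked ones.

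Predicted G4s followed the same division. A window was found in 3803 unmasked constitutive regions (82.6%, exact 95% interval 81.5 to 83.7%) and in 3882 masked ones (30.4%). In windows of a fixed 1 kb the unmasked share was 62.1% in 1 list, 67.9% in 2, 70.3% in 3 and 74.6% in 4. In masked sequence it went the other way, with 44.0, 38.4, 28.8 and 16.4%. GC content moved with it: the median over the same 1 kb windows was 48.0% in 1 list and 53.3% in 4 for unmasked regions, and 42.0% and 37.3% for masked ones. The part of GC content in the G4 shares was not tested.

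Some of the masked constitutive regions shared sequence with one another. The 4 most frequent words of 30 bases that have no part in common were chosen on the masked constitutive regions of odd-numbered autosomes (1 kb windows) and then counted on X and the even-numbered autosomes but 1.
Word 1: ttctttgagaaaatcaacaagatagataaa
Word 2: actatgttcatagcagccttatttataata
Word 3: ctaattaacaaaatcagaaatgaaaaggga
Word 4: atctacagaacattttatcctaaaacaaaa
At least 1 of the words, on either strand, was in 1237 of 5441 masked constitutive windows (22.7%), 982 of 5249 of 3 lists (18.7%), 1485 of 9800 of 2 lists (15.2%) and 3757 of 32444 of 1 list (11.6%). Words 1, 3 and 4 were more frequent in constitutive windows, at 7.63, 5.94 and 6.97%, than in windows of 1 list, at 2.25, 1.87 and 2.05%. Word 2 was less frequent, at 5.75% against 6.99%. None of the 1611 unmasked constitutive windows had any, with an exact 95% upper limit of 0.229%. Chromosome X held 1906 of the 5441 masked constitutive windows, and its part in these shares was not tested. The repeat families were not identified here, and reads that match many copies could be placed at any of them.

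The chromosomes differed in their density of constitutive regions. Chromosome 15 had 13.8 per Mb of called sequence, chromosome 3 had 12.8 and chromosome X had 12.3, whereas among autosomes chromosome 12 had 2.12 and chromosome 7 had 2.92. Chromosome Y had 0.125, from 11 regions. Masked regions made up most of this. Chromosome X had 11.7 masked and 0.599 unmasked regions per Mb, and chromosome 11, with 4.20, had the highest density of unmasked ones among the nuclear chromosomes. All peaks of GFP mock numbered 62.1 per Mb on chromosome 15 and 15.3 on chromosome 12. In Cre DOX the order was another, with 66.0 on chromosome X, 53.2 on chromosome 15 and 24.6 on chromosome 12. Copy number of the chromosomes in these cells was not examined.

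Among protein-coding genes, 2659 of 21951 (12.1%) had a constitutive region over a promoter. In 2414 of these 2659 (90.8%) each list also had a peak of its own within 1 kb of a start site. The lists of genes used below were drawn up with earlier results of these data known, and each is described by its count beside the 12.1% of all protein-coding genes. The list of translation and chaperone genes had the highest share, with 18 of 21 (85.7%). Glycolysis had 10 of 15 (66.7%), the cytoskeleton 13 of 27 (48.1%), cytosolic ribosomal proteins 34 of 80 (42.5%) and immediate early genes 10 of 25 (40.0%). The group of R-loop and G4 processing factors had 8 of 28 (28.6%). These shares rest largely on peaks of low score: of the 101 constitutive regions over promoters of listed genes, 45 were kept with −log10 q of at least 2 and 7 with the top decile of scores.

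Members of the lists are given here by name, and none of them was among the 12 best-ranked promoters of protein-coding genes. *Hsp90ab1*, a cytosolic chaperone, had scores of 52, 71, 90 and 64 and peaks over 5915, 10208, 10729 and 12354 bp. *Eef1a1*, the elongation factor that brings tRNAs to the ribosome, scored 29, 46, 55 and 78 over 1648, 1867, 2198 and 2089 bp. *Npm1*, a nucleolar chaperone, was covered over 1804, 2342, 2454 and 2431 bp. Among ribosomal protein genes *Rpl8* scored 19, 57, 96 and 90 and *Rpl36* 28, 57, 103 and 60, so that Cre mock was highest and GFP mock lowest in both. *Actb*, which encodes cytoplasmic actin, was covered over 2281, 2247, 3134 and 2593 bp, and *Gapdh*, a glycolytic enzyme, over 1367, 2526, 2050 and 1973 bp. The transcription factor *Myc* had 3122, 4191, 4597 and 3328 bp and *Klf10* 2025, 2236, 2420 and 2102 bp. The nuclear RNAs *Neat1* and *Malat1* and the snoRNA host *Gas5* were the 3 of 19 in that list (exact 95% interval 3.38 to 39.6%), beside 7.0% of all annotated genes and 2.46% of lincRNA genes. *Malat1* had 3621 bp in GFP mock against 8856, 9330 and 8168 bp elsewhere.

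Of the 28 factors that act on R-loops or G4s, 20 had no constitutive promoter region, *Rnaseh1* and *Rtel1* among them, and 8 had one. *Srsf1*, a splicing factor whose loss is known to raise R-loops, scored 33, 39, 79 and 53, and the RNA helicase *Ddx5* 27, 24, 47 and 27. *Dhx9* and *Dhx36*, helicases that unwind hybrids and G4s, had covered lengths of 648, 5239, 5332 and 5577 bp and of 654, 1220, 1610 and 2044 bp, so that GFP mock was the shortest for both. *Wrn*, *Brip1*, *Ddx39b* and *Rnaseh2c* completed the 8.

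The cell type could not be read from these peaks, which are not expression values. Constitutive regions lay over the promoters of 5 of 16 fibroblast markers (31.2%, exact 95% interval 11.0 to 58.7%, which holds the 12.1% of all protein-coding genes), the collagen gene *Col1a1*, the intermediate filament gene *Vim* and the mesenchymal transcription factors *Prrx1*, *Twist1* and *Twist2*. No marker of neurons, hepatocytes, muscle or epithelium had one (0 of 6 each, with an upper limit of 45.9%), and 1 of 6 blood markers did. A promoter peak in at least 1 list was found at 4 of 6 neuron and 4 of 6 epithelium markers and at 10 of 16 fibroblast markers. The blood marker was *Cd68*, whose promoter lies in the region of the translation factor gene *Eif4a1*, so this peak cannot be assigned to either. Collagen and other matrix genes had 4 of 25 (16%). Replication-dependent histone genes had 0 of 67, with an exact upper limit of 5.36%, although 26 of them had a promoter peak in some list, namely 18, 3, 12 and 9 in the 4 lists.

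**Figure D3:**
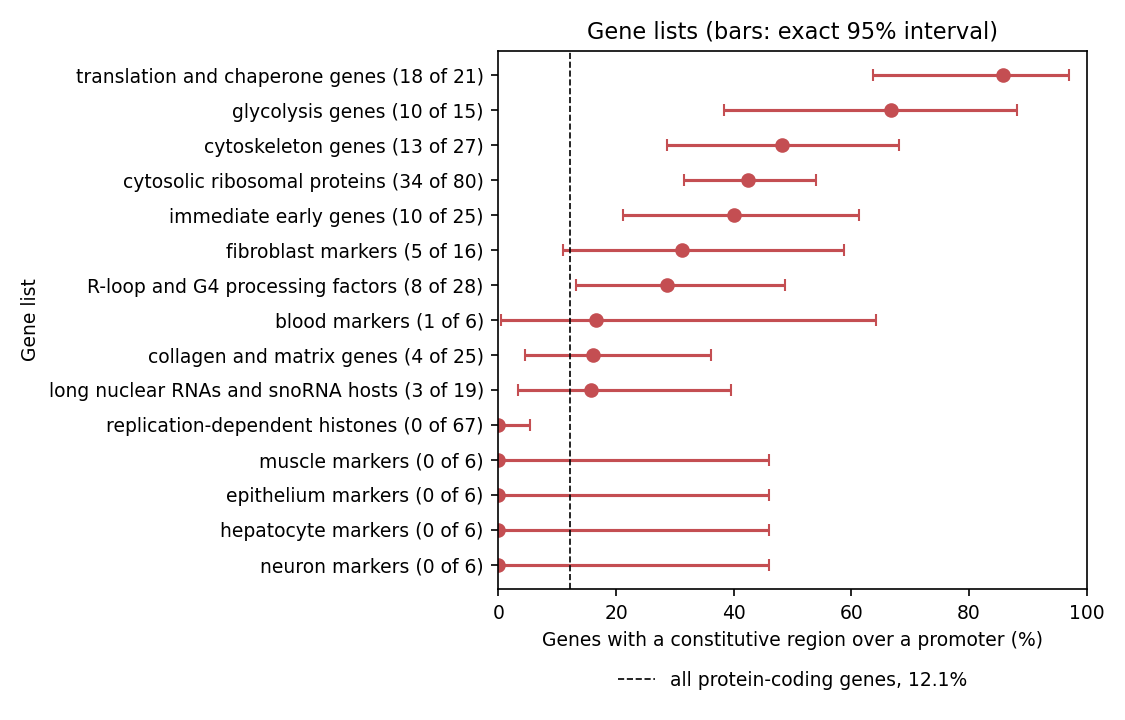
Percent of the genes of each list with a constitutive region over a promoter (points, with the number of genes) and exact 95% intervals. The dashed line is the 12.1% of all protein-coding genes, and translation and chaperone genes lie highest at 85.7% while histone genes have none.

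Of the 100 best-ranked regions 25 lay over a promoter, 9 of them over one of a protein-coding gene, and 46 were intergenic. Over all constitutive regions the shares were 18.4%, 15.2% and 58.3%. After the mitochondrial genes, the best were narrow regions over *Mpnd* and *Stap2* (scores of 578, 635, 794 and 355), *Phf21a*, a chromatin reader (346, 380, 436 and 310), *Ybx3*, a Y-box nucleic acid-binding protein (593, 171, 1192 and 382), *Sspn*, sarcospan of the dystrophin complex (312, 365, 525 and 244), *Mphosph8*, a reader of histone methylation (472, 253, 416 and 150), and *Taco1*, which activates mitochondrial translation (277, 255, 279 and 132). All 6 were highest in Cre mock except *Mphosph8*, and all but *Ybx3* were lowest in Cre DOX. Their widths ran from 375 bp at *Taco1* to 1106 bp at *Sspn*. The *Mpnd* and *Stap2* stretch and the reverse complement of the *Taco1* stretch hold a nearly identical run of bases. How reads that match several places were placed was not examined, so these scores cannot be assigned to the named genes with certainty. *Rela*, the NF-κB subunit p65, was the first nuclear one with a long shared part, of 1409 bp, and scored 231, 296, 377 and 116. *Gipc2*, *Tmem267* and *Gml* with *Gml2* completed the 12, with best scores of at most 228.

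Some loci shared several kilobases in every condition. The longest unbroken shared stretches lay in a masked region around *Vmn1r54*, a pheromone receptor gene, on chromosome 6 (9034 of 11916 bp shared), and around the transcription factor *Zbtb7a* and the ubiquitin ligase *Trim8* (7939 bp shared at *Trim8*), with scores of only 32 to 49. *Zbtb7a* had 9039 of 11943 bp shared in all. A region at *Plec*, which encodes the cytolinker plectin, was named after its values were seen because it had the most shared bases. It ran from 76168529 to 76195079 on chromosome 15, with 19887 of 26551 bp shared and covered lengths of 20426, 26395, 26490 and 25491 bp. Along gene bodies, *Cpq* on chromosome 15 had 24 constitutive regions over 511 kb, and *Gm20388*, an annotation that spans 4435 kb of chromosome 8, had 37.

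Genes with a constitutive region at their start had peaks at their end more often than other genes, though most had none there. Of 2133 protein-coding genes longer than 6 kb with a constitutive promoter region, 390 (18.3%, exact 95% interval 16.7 to 20.0%) also had a constitutive region within 1 kb of their end, against 372 of 14748 genes without one (2.52%, 2.28 to 2.79%). A peak of any kind at the end was present in 21.2, 27.4, 38.1 and 28.4% of the former genes, in the order of conditions used above. Genes without a constitutive promoter region had 7.15, 6.91, 12.8 and 9.10%. These include genes with no promoter peak in any list, which were 10898 of all 21951 protein-coding genes. Whether the window at an end held the promoter of a neighbouring gene, or the same wide region as the start, was not examined. At the start site itself, 39.3, 41.4, 50.9 and 42.9% of the former genes were covered, and 3 kb downstream 7.6, 11.6, 15.7 and 14.4%. At 3 kb upstream it was 3.56, 6.09, 7.74 and 6.75%, so that GFP mock had the least cover on both sides of the start.

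**Figure D4:**
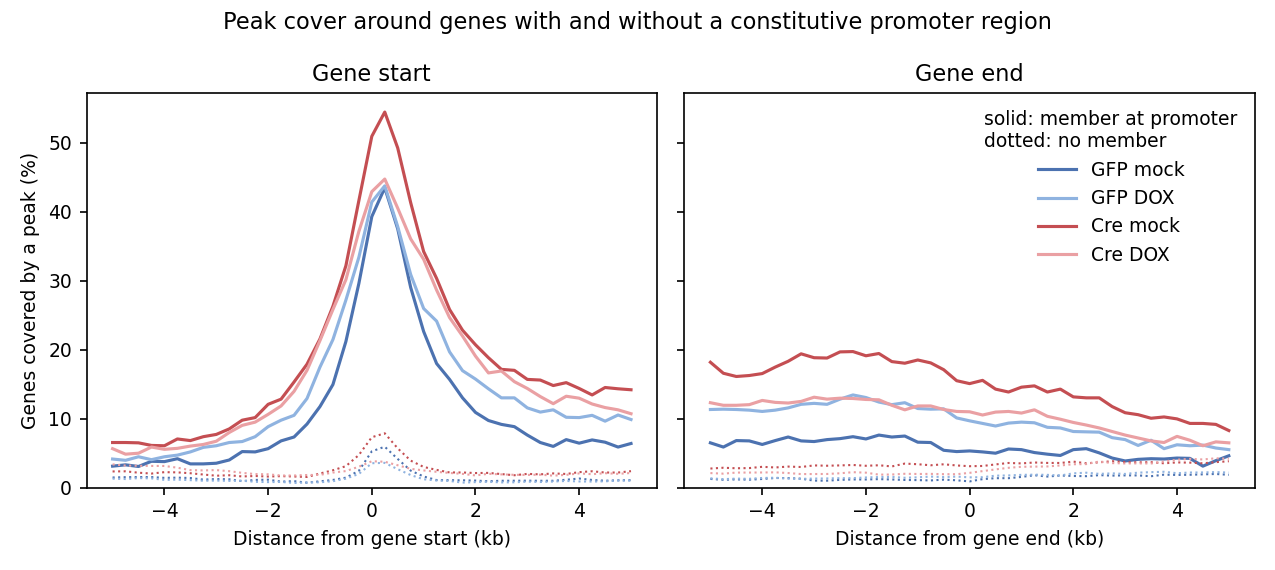
Percent of protein-coding genes over 6 kb long that are covered by a peak at each distance (kb) from the gene start (left) and end (right), in the 4 conditions. Solid lines are the 2133 genes with a constitutive promoter region and dotted lines the 14748 without one. At the end itself the solid lines lie at 5.3 and 9.7% for the GFP lists (mock, then DOX) and at 15.1 and 11.0% for the Cre lists.

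The width of constitutive regions differed between conditions and between the kinds. Unmasked regions had a median covered length of 721, 827, 1154 and 1008 bp. Masked regions had 732, 796 and 892 bp in the first 3 and 2045 bp in Cre DOX (quartiles 1060 and 3378). Cre mock was the widest condition for 39.6% of unmasked regions and Cre DOX for 80.9% of masked ones. The narrowest peak of a list moved with this, at 106, 107, 132 and 213 bp, and its part in the widths was not tested.

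**Figure D5:**
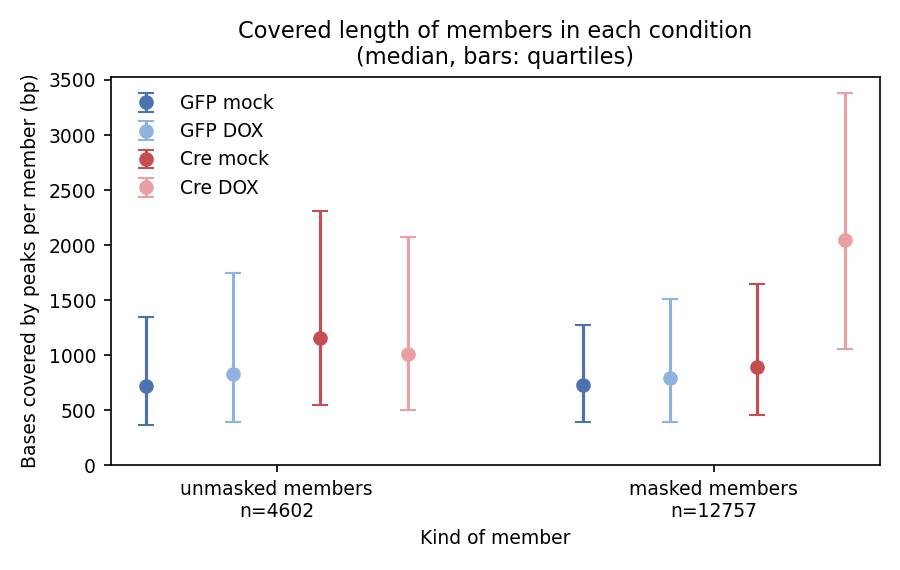
Bases covered by peaks per constitutive region (bp) in each condition, for 4602 unmasked and 12757 masked regions. Points are medians and bars reach from the lower to the upper quartile, with the unmasked median highest in Cre mock at 1154 bp and the masked median highest in Cre DOX at 2045 bp.

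Per region, the covered length in Cre mock was a median of 1.45 times that in GFP mock for unmasked regions and 1.17 times for masked ones. At least a 2-fold gain was seen in 1646 unmasked regions (35.8%, against 30.4% of all unmasked regions with a peak in both lists) and at least a 2-fold loss in 384 (8.34%, against 12.3%). For masked regions the gain was in 3081 (24.2%, against 22.2%). Over unmasked promoters the median ratio was 1.56 and away from promoters 1.30.

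Between the mock and doxycycline lists, the median of unmasked regions lay on opposite sides of 1 in the 2 genotypes. In GFP cells the ratio of DOX to mock was 1.12, with a 2-fold gain in 1149 regions (25%, against 22.9% of all regions in both lists) and a 2-fold loss in 671 (14.6%, against 17.7%). In Cre cells it was 0.942, with a gain in 523 (11.4%, against 17.5%) and a loss in 771 (16.8%, against 17.8%). At promoters the ratios were 1.23 and 0.911 (GFP, then Cre), and away from promoters 1.01 and 0.995. With only the peaks of the top decile of scores the ratios were 1.01 and 1.06, so the direction in Cre cells turned. Most unmasked regions thus changed by less than 2-fold with doxycycline in either genotype, and the constitutive set holds by construction no region that lost its peak.

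Masked regions were wider in Cre DOX. There the ratio to Cre mock was 1.94, with a 2-fold gain in 6158 (48.3%, against 50.9%) and a 2-fold loss in 212 (1.66%, against 2.5%). In GFP cells the ratio was 1.05, with a gain in 2688 (21.1%, against 20.1%). Comparing both doxycycline lists, Cre over GFP, a 2-fold gain was seen in 7078 masked regions (55.5%, against 57.6%) and in 1102 unmasked ones (23.9%, against 28.3%), and a 2-fold loss in 475 unmasked ones (10.3%, against 10.4%). The width of masked regions in Cre DOX was therefore not particular to the constitutive set.

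The gene lists differed in their ratios of covered length. Over the 2630 constitutive regions at promoters of protein-coding genes the median ratio of Cre mock to GFP mock was 1.57, with 2019 of the 2630 wider in Cre mock. It was 2.68 over the 33 regions of ribosomal protein genes, of which all 33 were wider in Cre mock, 2.84 over 10 regions of glycolysis genes (7 wider) and 1.98 over 17 regions of translation and chaperone genes (16 wider). Immediate early genes had 1.61 (7 of 10) and fibroblast markers 1.16 (4 of 5), so that the counts of wider regions in these 2 lists and in glycolysis were near the share of all such promoters. With doxycycline, GFP cells had a ratio of 1.24 over all such promoters (1682 of 2630 wider) and 1.76 over the ribosomal protein genes (30 of 33 wider). Other lists in GFP cells had 2.52 (nuclear RNAs and snoRNA hosts, 3 of 3), 2.15 (cytoskeleton, 9 of 13), 1.89 (collagen and matrix, 3 of 4) and 1.82 (R-loop and G4 factors, 7 of 8). Translation and chaperone genes had 1.73 (14 of 17), glycolysis 1.48 (7 of 10), immediate early genes 1.22 (6 of 10) and fibroblast markers 1.03 (3 of 5). Cre cells had 0.905 over all such promoters (1073 of 2630 wider) and 1.01 over the ribosomal protein genes (17 of 33 wider). Translation and chaperone genes had 1.00 in Cre cells and R-loop and G4 factors 1.02. The other lists with more than 1 region lay below 1 in Cre cells. Immediate early genes had 0.793 (2 of 10 wider), nuclear RNAs and snoRNA hosts 0.875 (1 of 3) and glycolysis 0.931 (3 of 10). Collagen and matrix genes had 0.946 (1 of 4), fibroblast markers 0.949 (2 of 5) and the cytoskeleton 0.952 (6 of 13). GFP mock was the narrowest list in 29 of the 33 and in 1294 of all 2630, so the comparisons that share it are not independent. At several ribosomal protein genes, *Rpl26*, *Rpl29*, *Rplp0* and *Rps20* among them, GFP mock had only 106 bp, the width of its narrowest peak. Several of these regions, such as those at *Rpl3* and *Rpl7*, had no base covered by all 4 lists.

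Single regions were ranked by their ratio among those with at least 500 bp in both lists compared. The region over *Stub1*, *Jmjd8* and *Rhbdl1*, of which *Stub1* encodes a chaperone-linked ubiquitin ligase, had the largest gain with doxycycline in GFP cells, at 594 bp in GFP mock and 8129, 7765 and 5920 bp in the others. Below that minimum there were larger ratios, as at *Rpl29*, with 106 bp in GFP mock and 2927 bp after doxycycline. *Ppp1ca*, a catalytic subunit of protein phosphatase 1, and *Rad9a*, of the checkpoint clamp, shared a region with 713, 6574, 5579 and 7778 bp. The largest fall in GFP cells was at the promoter of the pseudogene *Gm28117*, from 3747 bp in GFP mock to 639 bp in GFP DOX. Masked intergenic regions followed, on chromosome 13 (3014 and 546 bp) and chromosome 17 (2567 and 514 bp). The largest fall with doxycycline in Cre cells was in a coding exon of *Zc3h3*, which had 1938, 3002, 4003 and 598 bp, then at *Tns2*, a focal adhesion protein, with 464, 2547, 3320 and 508 bp, and at *Trip6*, another adhesion protein, with 1010, 4763, 4968 and 762 bp. In these 3 both GFP DOX and Cre mock were wide. The largest gains in Cre cells were in masked intergenic regions, with 517 bp without and 5074 bp with doxycycline on chromosome X. At *Zc3h3*, at *Trip6* and in this chromosome X region no base was covered by all 4 lists, so chains of overlapping peaks joined them. The shared part was 165 bp at *Tns2*, 313 bp at *Stub1* and 690 bp at *Ppp1ca*.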

How the data were processed

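DRIP-seq libraries of 4 conditions and 4 inputs were grouped by the virus and the treatment in their labels; the inputs were not analysed here. The authors pooled 3 S9.6 immunoprecipitations per library and aligned single-end reads to mm10, then called peaks with MACS2 for each library. The deposited score is 10 times the −log10 q-value, rounded down, and the deposited fold is the ratio of signal to local background. The deposited −log10 p-values and −log10 q-values are the caller's own. Whether inputs served as controls is not given in the sources used here. The lists are in the broad format while the stated command names a narrow option, so which calling mode set the peak widths, and with them the covered lengths, is uncertain. None of these is normalized between libraries and read depth is unknown, so regions were ordered by the percentile of their score in each list, whereas scores and score ratios given between conditions are as deposited and can differ with depth.

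Peaks of any score were merged with Python 3.11.15 (numpy 2.4.6, pandas 2.3.3, scipy 1.17.1), which was tested on simulated peaks. Genes were those of GENCODE M21 with a promoter of 1 kb to either side of a start site, in the precedence promoter, coding exon, other exon, intron, intergenic. Sequence and repeat masking (lower-case bases) came from GRCm38.p6, the RefSeq copy of the mm10 build. Predicted G4s used G4Hunter (25 bases, 1.5). Intervals on shares are exact (Clopper-Pearson, 95%) and cover the number of regions only. Regions, gene lists and comparisons were chosen with earlier results of these data known. Named regions were the best by mean percentile overall (8), over protein-coding promoters (12) and in each other position (3), those with extreme widths or shared stretches (3 each), those at the lower edge, and the members of the gene lists. Sequences came from the best promoter regions whose shared stretch was masked over at most 50%, and from the best region of a list with at least 200 shared bases, 1 autosome being left out. Alternatives were a stricter q-value, the top decile of scores, equal list sizes, a shared base, and other definitions of promoter, G4 and ratio. The sequence of the telomeric tracts is not reported here.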

Additional observations from a re-analysis of the deposited data

Results flagged for a closer look

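The median covered length of unmasked constitutive regions lay on opposite sides of 1 in the comparison of doxycycline with mock in the 2 genotypes. The ratio of DOX to mock was 1.12 in GFP cells and 0.942 in Cre cells. Over all unmasked regions with a peak in both lists it was 1.04 and 0.984, also on opposite sides of 1. The difference between the genotypes was not tested, because each condition had 1 library, and the Cre value turned to 1.06 with the top decile of scores. Masked regions lay on the same side in both, with ratios of 1.05 and 1.94.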

How the results depend on the processing

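No paired analysis was possible because each condition had 1 library and all labels carried the same replicate number. The number of constitutive regions, 17359 with all peaks, was 5214 with −log10 q of at least 2, 1076 with the top decile of scores and 4602 in unmasked sequence. The promoter share, 18.4% of all constitutive regions, was 19.7% with the stricter q, 17.6% with equal list sizes, 60.8% in unmasked sequence, 20.3% on autosomes, 16.4% and 21.8% with promoters of 500 bp and 2 kb, 15.2% for protein-coding genes, 13.4% at the midpoint and 15.2% in the longest shared stretch. In unmasked regions it was 35.5% in the top decile and 62.6% with equal list sizes. The predicted G4 share, 44.3%, was 49.0% with the stricter q, 52.0% in the top decile, 46.5% with a shared base, 82.6% in unmasked sequence, 46.1% on autosomes, 16.7% in the longest shared stretch, 30.4% with G4Hunter of at least 2 and 31.8% in 1 kb windows.

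The ratios of covered length over all regions are given in the order Cre mock to GFP mock, GFP DOX to GFP mock and Cre DOX to Cre mock, and were 1.24, 1.07 and 1.61. They were 1.21, 1.03 and 1.40 with the stricter q, 1.12, 1.01 and 1.23 in the top decile, 1.19, 1.05 and 1.48 with a shared base, 1.45, 1.12 and 0.942 in unmasked sequence, and 1.34, 1.17 and 1.59 from summed lengths. Equal list sizes gave 1.22 and 1.11 for the first 2, and autosomes 1.56 for the last. In unmasked regions they were 1.29, 1.07 and 0.964 with the stricter q, 1.16, 1.01 and 1.06 in the top decile, and 1.64, 1.31 and 0.891 from summed lengths. There equal list sizes gave 1.40 and 1.17 for the first 2, and a shared base 1.35 for the first and 0.964 for the last. In masked regions a shared base gave 1.14, 1.03 and 1.69 and the top decile 1.09, 1.01 and 1.40, and the stricter q gave 1.01 and 1.65 for the last 2. Summed lengths gave 1.23 and 1.11 for the first 2, equal list sizes 1.10 for the second and autosomes 1.90 for the last. The ratio of Cre DOX to Cre mock thus turned in unmasked sequence as a whole and, within it, in the top decile; the cause was not tested. Of 108 alternative values, 38 stayed close to the value as reported, counts within 1.5 times and other values within their interval, and among these the number of regions ran from 11901 to 18142. Read depth is unknown and limits every comparison of lists.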
